A study of Mus musculus with 4 samples.

Results

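The pair of piRNA loci at the chromosome band 18-qE1, known as pi18, was followed through small RNA libraries of the mouse testis. Its members are 18-qE1-36451 and 18-qE1-1295, taken by their locus names from the 214 piRNA loci in the deposited table. Of these 214 loci, 100 are named by a chromosome band and 114 after a gene. The libraries came from whole testes of 16-day-old mice, 2 of mice with a knockdown of Hsf5 and 2 of wild-type mice, with total RNA as the starting material. The product of Hsf5, heat shock factor 5, is made in spermatocytes, and mice without it do not complete the pachytene stage of meiosis. The labels call the mice knockdowns, the deposited table calls the same libraries knockouts, and the wording of the labels is used here. How Hsf5 was reduced, in which cells, and how much of it was left are not stated by the labels, and small RNA reads do not measure its mRNA. The series design asks how piRNA levels differ between these mice during spermatogenesis.

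piRNAs are small RNAs that guide PIWI proteins to matching transcripts. In mice, pachytene piRNAs are cut from long single-stranded precursors that spermatocytes begin to make when they enter pachynema, and many precursors are transcribed in opposite directions from a promoter they share, bound by the transcription factor A-MYB. MILI binds the shorter piRNAs and MIWI the longer ones, and most carry a U as their first base. Mice without pi18 piRNAs are known for misshapen sperm heads and male infertility.

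Both members lie on chromosome 18 of mm39, back to back. 18-qE1-36451 is the minus-strand arm (chr18:67162518-67199531, 37014 nt) and 18-qE1-1295 the plus-strand arm (chr18:67199659-67217450, 17792 nt), and 127 bases separate their 5′ ends. In GENCODE M39 the lncRNA Gm50166 covers 100% of the plus-strand arm, while the lncRNA Gm50165 covers 5.60% of the minus-strand arm, at its 3′ end. Gnal, which encodes an olfactory-type G protein alpha subunit, begins 3836 nt past the end of the plus-strand arm. In the 300 nt centred between the arms, the hexamer CAACTG, the core of the MYB motif, read on either strand, occurred 3 times, at 8, 38 and 51 nt to the plus-strand side of the middle. The same hexamer was present in 15.3% of 78287 windows of that length at annotated gene starts, and in 10 of the 14 divergent piRNA pairs described further on.

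The libraries held 9619666 and 10900306 counted reads in knockdown replicates 1 and 2, and 11117460 and 9260452 in wild-type replicates 1 and 2. Reads of 25 to 31 nt, the length of piRNAs, were used throughout, and levels are in RPM, the reads for every 1000000 that were counted in a library. A count of 3 reads equals 0.270 to 0.324 RPM. The miRNA markers listed for spermatocytes (3 of 3 found), spermatogonia (4 of 4), testis somatic cells (4 of 4) and blood (3 of 3) were above 0 in every library. The spermatocyte list summed to 6094 and 7035 per 1000000 miRNA reads in the knockdown libraries, and to 4692 and 7764 in the wild-type libraries. In knockdown replicates 1 and 2 the somatic list summed to 46065 and 48160, the spermatogonia list to 531 and 250.3, and the blood list to 198 and 64.2. In wild-type replicates 1 and 2 these lists summed to 47655 and 49892, to 425 and 485, and to 219 and 221. The labels call the samples biological replicates but do not say how many mice each holds.

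The pair was nearly empty in knockdown replicate 1 and abundant in the other libraries. 18-qE1-36451 had 14.3 and 7393 RPM in the knockdown libraries, and 3951 and 7599 RPM in the wild-type libraries. These are 138 and 80586 reads in the knockdown, and 43925 and 70372 reads in the wild type. The arm ranked 173rd of the 214 loci in knockdown replicate 1, 10th in knockdown replicate 2, and 10th and 9th in the wild type. 18-qE1-1295 had 7.07 and 584 RPM in the knockdown, and 324 and 625 RPM in the wild type, from 68, 6365, 3597 and 5786 reads in that order of libraries. Knockdown replicate 2 lay between the wild-type libraries for both arms, so the groups overlapped. In bulk samples such as these, fewer cells of a type and less RNA per cell cannot be told apart.

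**Figure D1:**
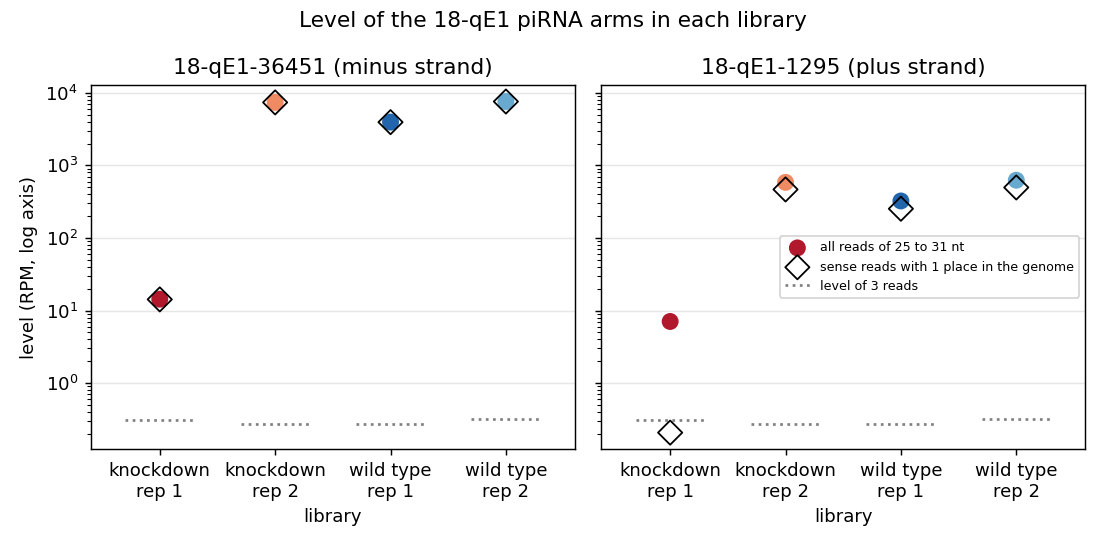
Level of each arm in each library, in RPM on a log axis. Filled circles are all reads of 25 to 31 nt named after the arm, open diamonds its sense reads with 1 place in the genome, and dotted lines the level of 3 reads. Only knockdown replicate 1 lies below 100 RPM, and there the circle and the diamond of 18-qE1-1295 part, at 7.07 and 0.208 RPM.

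Means over libraries hide this split. 18-qE1-36451 averaged 3704 ± 5217 RPM in the knockdown and 5775 ± 2580 RPM in the wild type, and 18-qE1-1295 averaged 295 ± 408 and 474 ± 213 RPM (SD, n = 2 each). The exact two-sided permutation test gave p = 0.667 for each arm, where 0.333 is the smallest p that 2 libraries against 2 allow. edgeR's quasi-likelihood test over all 214 loci gave a log2 difference, knockdown over wild type, of -1.03 (SE 2.18) for 18-qE1-36451 and -1.04 (SE 1.63) for 18-qE1-1295, both with a Benjamini-Hochberg adjusted p of 0.992. edgeR called 0 of the 214 loci, a background of 0%, with 0 loci at an unadjusted p under 0.05, and DESeq2 also called 0. The median log2 difference over all loci was 0.11. Without knockdown replicate 2 the same edgeR fit gave log2 differences of -7.61 and -5.02 for the arms. Without knockdown replicate 1 it gave -0.24 and -0.29. In either fit the lone knockdown library is assumed to vary like the wild type, so only the sizes are given.

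Many other band-named loci were also low in knockdown replicate 1. Its level was 0.363% of the lower wild-type library for 18-qE1-36451 and 2.18% for 18-qE1-1295. Over all loci, the pair included, 28 of 214 (13.1%) were under 5% of their lower wild-type library there. Of the 100 band-named loci, again with the pair, 26 (26%) were. In knockdown replicate 2 the count under 5% was 0 of 214, and the pair stood at 187% and 180% of the lower wild type. These counts are a description of single libraries, with a limit of 5% chosen after the values were seen.

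**Figure D2:**
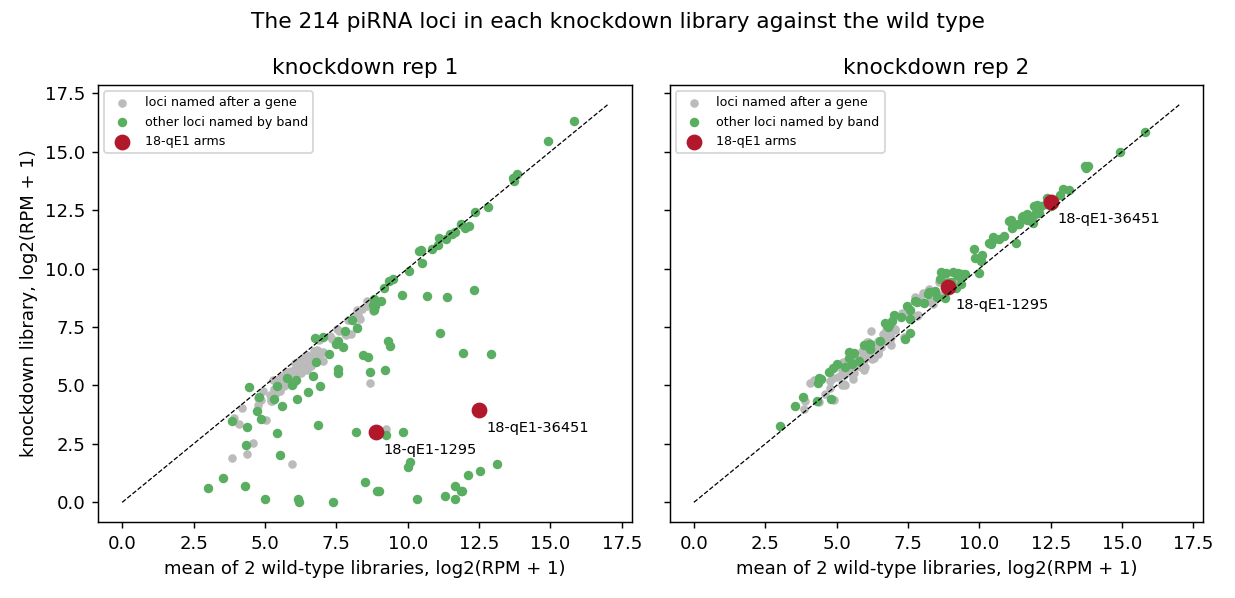
Each of the 214 piRNA loci in knockdown replicate 1 (left) and knockdown replicate 2 (right) against the mean of the 2 wild-type libraries, on the log2(RPM + 1) scale, with a dashed line of equality. The 18-qE1 arms fall far below the line in replicate 1, with many other band-named loci, and lie beside it in replicate 2.

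The minus-strand arm was the stronger by a steady factor wherever the pair was abundant. The ratio of 18-qE1-36451 to 18-qE1-1295 was 12.7 in knockdown replicate 2, and 12.2 and 12.2 in the wild type. It was 2.03 in knockdown replicate 1, where 66 of the 68 reads named 18-qE1-1295 were antisense to the arm, as described next. The per-kb value of that arm and the log2 ratio in that library rest on the same reads. Per kb of arm, 18-qE1-36451 had 0.388 and 199.7 RPM in knockdown replicates 1 and 2 and a mean of 156 RPM in the wild type, and 18-qE1-1295 had 0.397, 32.8 and 26.7 RPM. The log2 ratio averaged 2.34 ± 1.87 in the knockdown and 3.61 ± 0.0041 in the wild type (SD, n = 2 each), with p = 1 in the exact permutation test.

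The strands of the reads differed between knockdown replicate 1 and the other libraries. Counting the sense strand alone, 18-qE1-36451 had 137 and 80448 reads in the knockdown, and 43863 and 70292 in the wild type. 18-qE1-1295 had 2 and 5970 sense reads in the knockdown, and 3290 and 5372 in the wild type. The 2 sense reads are 0.0703% of the lower wild-type level, with an exact Poisson 95% interval of 0.00851% to 0.254% for counting error only. The minus-strand arm kept 0.361% (0.303% to 0.427%), so that library held next to no sense reads of either arm. The sense ratio of the arms was 68.5 and 13.5 in the knockdown, and 13.3 and 13.1 in the wild type, where the 68.5 rests on those 2 reads. The other 66 of the 68 reads named 18-qE1-1295 in knockdown replicate 1 were antisense to the arm, against 395 of 6365 in knockdown replicate 2, and 307 of 3597 and 414 of 5786 in the wild type.

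All 66 of these antisense reads matched a second place in the genome, the gene Unc119b on chromosome 5. Unc119b encodes a protein that binds lipid-modified cargo and carries it to the cilium. The arm holds a copy of part of its 3′ UTR, from 1219 to 2587 nt past the 5′ end of the arm, which aligned to chr5:115260622-115261978 at 95.28% identity over 1377 positions, with 37 mismatches and 5 gaps. The copy is in reverse, so that the arm's RNA is antisense to Unc119b mRNA. Of the 26-nt windows of the copied segment, 54.7% matched the gene exactly, so many reads cannot be assigned to one place. The segment was looked at after the strand counts were seen.

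Reads of the copied segment on the strand of the arm were absent from knockdown replicate 1. Those with 1 place in the genome numbered 0 and 1773 in the knockdown, and 813 and 1473 in the wild type. Those shared with Unc119b numbered 0 and 886 in the knockdown, and 479 and 773 in the wild type. With 0 reads, a level of up to 0.312 RPM in that library is still possible. On the strand of Unc119b mRNA, shared reads numbered 66 and 237 in the knockdown, and 172 and 214 in the wild type. Reads that belong to the Unc119b 3′ UTR outside the segment, with 1 place, numbered 154 and 404 in the knockdown, and 361 and 290 in the wild type. They amount to 16.0 and 37.1 RPM in the knockdown, and 32.5 and 31.3 RPM in the wild type. Within the segment, reads of the Unc119b strand with 1 place in Unc119b numbered 11 and 8 in the knockdown, and 16 and 22 in the wild type. Antisense reads with 1 place in the arm numbered 0 and 39 in the knockdown, and 33 and 62 in the wild type. The shared reads of the Unc119b strand thus stood at 6.86 RPM in knockdown replicate 1 beside 16.0 RPM from the rest of that UTR. The reads of the arm's strand stood at 0.

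**Figure D3:**
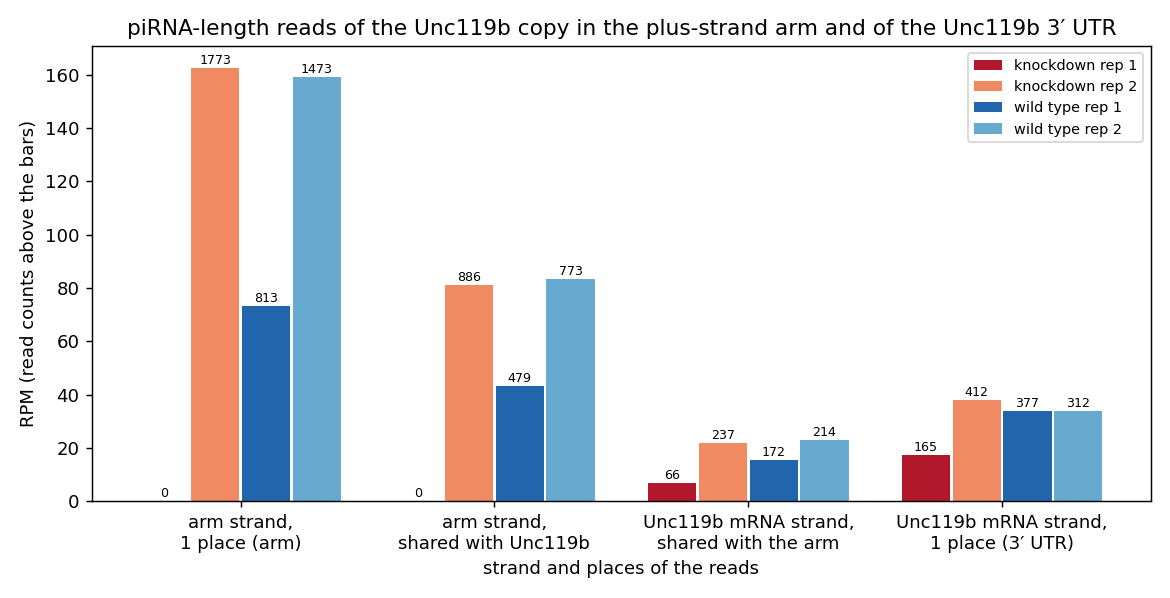
Reads of 25 to 31 nt in the Unc119b copy of 18-qE1-1295 and in the Unc119b 3′ UTR, by strand and by whether they match 1 place or both, in RPM with read counts above the bars. The left groups, on the strand of the arm, are at 0 in knockdown replicate 1, while the right groups, on the strand of Unc119b mRNA, hold 66 and 165 reads there.

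Opposite-strand reads in the copied segment overlapped by 10 nt more often than by other lengths, the overlap left when one piRNA guides the cut that makes another. The pairs of reads, scored as the smaller count at each pair of 5′ ends, gave 78 at 10 nt in knockdown replicate 2, against a mean of 28.8 over the other overlaps of 1 to 20 nt. The wild-type libraries gave 50 against 19.9 and 102 against 32.7. The highest score at any other overlap was 61 in knockdown replicate 2, and 41 and 58 in the wild type. Knockdown replicate 1, with 0 reads on the arm's strand, gave 0. In the rest of the arm the score at 10 nt was 10 in knockdown replicate 2, and 7 and 11 in the wild type, with highest other scores of 10, 5 and 11 in that order. The overlaps of 10 nt made up 12.5% of all overlaps of 1 to 20 nt in the segment in knockdown replicate 2, and 11.7% and 14.1% in the wild type, beside 14.3% in the rest of the arm in knockdown replicate 2, and 13.2% and 11.1% in the wild type. A difference between the segment and the rest of the arm was not tested.

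Reads along the minus-strand arm piled up in its first 14 kb and in a block far downstream. The following shares count sense reads of any annotation class with 1 place in the genome. The first 10 kb of 18-qE1-36451 held 54.5% and 49.6% of them in the knockdown, and 52.9% and 52.2% in the wild type. The fullest 1 kb began 3 kb from the 5′ end in each library, with 10.9% and 9.46% in the knockdown, and 11.4% and 10.7% in the wild type. The block from 26 to 28 kb held 3.03% and 12.7% in the knockdown, and 8.51% and 9.06% in the wild type. Past 28 kb the share was 1.21% and 2.17% in the knockdown, and 2.25% and 2.31% in the wild type.

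18-qE1-1295 was read mostly in its first 10 kb, with 80.5% in knockdown replicate 2, and 79.0% and 80.2% in the wild type. Its fullest 1 kb began 1 kb from the 5′ end in these 3 libraries and held 23.2% in knockdown replicate 2, and 18.97% and 20.4% in the wild type. The stretch from 8 to 14 kb held 3.32% in knockdown replicate 2, and 4.88% and 3.93% in the wild type. Knockdown replicate 1 had too few reads on this arm for a profile.

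**Figure D4:**
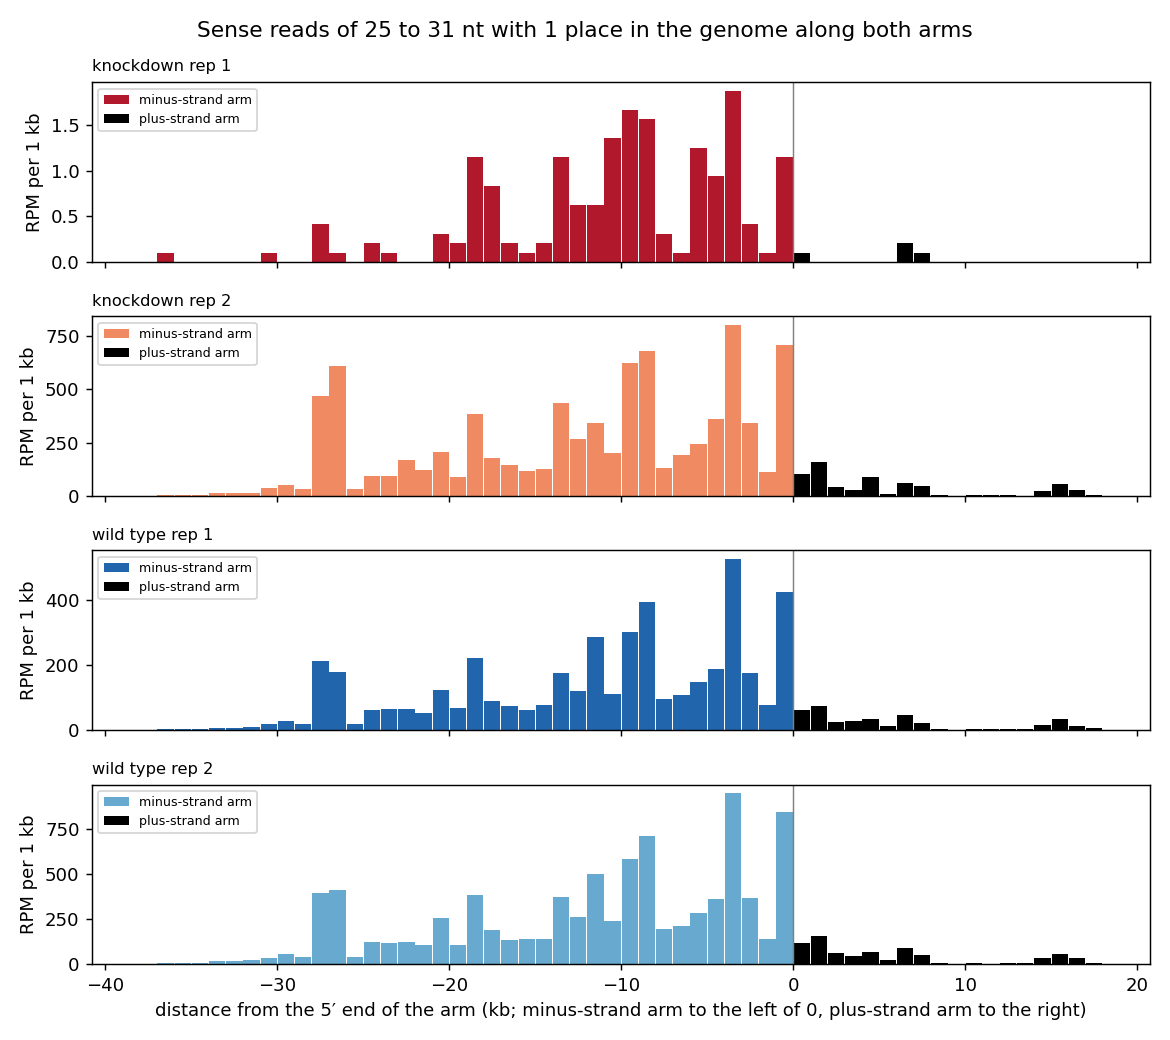
Sense reads of 25 to 31 nt with 1 place in the genome, of any annotation class, in 1 kb steps from the 5′ end of each arm, in RPM. Each library has its own scale, and the minus-strand arm runs to the left. Peaks at the 5′ end, at 3 kb and at 8 to 10 kb of the minus-strand arm recur in each library, and the block past 26 kb is tallest, relative to the rest, in knockdown replicate 2.

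Most sense reads of knockdown replicate 1 on the minus-strand arm fell on 5′ ends also read in the other libraries. Of its 89 sense 5′ ends on 18-qE1-36451, 77 were present in all of the other 3 libraries, and they carried 121 of its 137 reads. Of its 97 distinct sequences, 89 were found in another library. Of all 6326 sense 5′ ends of the arm, 2143 were present in all of those 3 libraries. Abundant ends are the likeliest to be drawn by few reads, and whether the sharing exceeds that was not tested. The 20 most abundant 5′ ends of the other 3 libraries took 20.4% of its reads, and 29.6% in knockdown replicate 2, 24.1% and 23.6% in the wild type. Ranking the ends on those 3 libraries favours their shares. Across the 896 ends of the arm with at least 30 reads in all, log2(RPM + 0.1) correlated between the wild-type libraries with Pearson's r = 0.86 and Spearman's rho = 0.82. Knockdown replicate 2 correlated with them at r = 0.74 and 0.80. Knockdown replicate 1 correlated at r = 0.29 with knockdown replicate 2, and 0.31 and 0.34 with the wild type. Its 137 sense reads leave most of these ends empty, so these r values cannot be set against the others. On 18-qE1-1295, across 107 ends, r was 0.74 between the wild-type libraries. Knockdown replicate 2 correlated with them there at r = 0.49 and 0.50. These are correlations across positions of one arm, which are not independent replicates.

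The 5 most abundant piRNAs of each arm, ranked by mean RPM over the 4 libraries, all began with U. On the minus-strand arm the first, 30 nt long and 27721 nt from the 5′ end, had 0.104 and 292 RPM in the knockdown, and 134 and 222 RPM in the wild type. It was the leading piRNA of the arm in each library but knockdown replicate 1, where it had 1 read. The next pair in the mean, of 30 and 29 nt, share a 5′ end at 26242 nt and ranked 2nd and 3rd in knockdown replicate 2, 3rd and 6th in wild-type replicate 1, and 2nd and 5th in wild-type replicate 2. The 30-nt form had 0 and 252 RPM in the knockdown, and 56.8 and 132 RPM in the wild type. The 29-nt form had 0 and 164 RPM in the knockdown, and 35.3 and 89.3 RPM in the wild type. Over all lengths, that 5′ end took 6.81% of the arm's sense reads in knockdown replicate 2, and 2.97% and 3.62% in the wild type. The remaining piRNAs of the leading 5 were 27 nt long, at 3642 and 182 nt from the 5′ end. The piRNA at 3642 nt had 0.208 and 89.998 RPM in the knockdown, and 67.1 and 117 RPM in the wild type, and the one at 182 nt 0.208 and 67.9 RPM in the knockdown, and 55.6 and 123 RPM in the wild type.

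On 18-qE1-1295 the leading piRNA, 29 nt long and 4720 nt from the 5′ end, had 0 and 27.6 RPM in the knockdown, and 4.68 and 10.8 RPM in the wild type. The 30-nt form with the same 5′ end was second in the mean and in knockdown replicate 2, but 15th in wild-type replicate 1 and 2nd in wild-type replicate 2. It had 0 and 15.6 RPM in the knockdown, and 1.44 and 6.59 RPM in the wild type. Together, over all lengths, this 5′ end took 9.85% of the arm's sense reads in knockdown replicate 2, and 2.43% and 3.31% in the wild type. The next 3, at 1372 and 1377 nt, lie in the Unc119b copy, each with 1 place in the genome. They had 0 reads in knockdown replicate 1, 52 to 85 in knockdown replicate 2 and 24 to 60 in the wild type. The 10 most abundant sequences of each library made up 25.4% and 15.8% of 18-qE1-36451 in the knockdown, and 12.4% and 12.7% in the wild type. For 18-qE1-1295 the shares were 69.1% and 15.3% in the knockdown, and 8.90% and 9.82% in the wild type.

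Both arms had a long and a short form of piRNA where they were abundant. 18-qE1-36451 was fullest at 30 nt in knockdown replicate 2 (25.9%) and in the wild type (23.0% and 20.6%), with a second peak at 27 nt. In knockdown replicate 1 its 138 reads were fullest at 26 nt, with 32.6%, and 0 reads of 31 nt. The ratio of long (29 to 31 nt) to short (25 to 28 nt) reads of 18-qE1-36451 was 0.266 and 1.21 in the knockdown, and 0.959 and 0.819 in the wild type. That of 18-qE1-1295 was 0.133 and 1.19 in the knockdown, and 0.772 and 0.732 in the wild type. The values of 18-qE1-1295 in knockdown replicate 1, here and for the base shares given next, rest on 66 reads shared with the Unc119b strand and 2 sense reads. The knockdown libraries lay on either side of the wild type for both arms, and the exact permutation test gave p = 1 for each. The long reads of 18-qE1-36451 were 21.01% in knockdown replicate 1 (Wilson 95% interval 15.0% to 28.6%) and 54.7% in knockdown replicate 2 (54.3% to 55.0%), and 49.0% and 45.0% in the wild type.

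**Figure D5:**
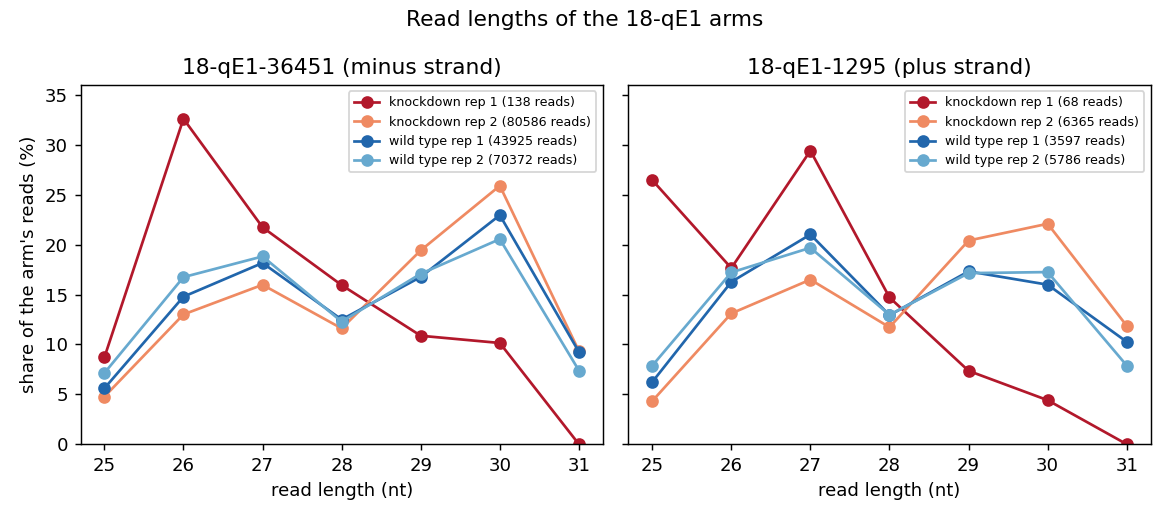
Share of the reads of each arm at each length from 25 to 31 nt, in percent, with 1 line a library and its read count in the legend. Knockdown replicate 1 is fullest at 26 and 27 nt, and knockdown replicate 2 has the highest shares at 30 nt in both arms.

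Single 5′ ends stood on either side of the wild type. Among 3 libraries, any of them would be highest or lowest at many ends by order alone. Whether the following counts differ from that was not tested. Of 346 ends of 18-qE1-36451 with at least 20 reads in each of the 3 libraries, 130 had a higher share of long reads in knockdown replicate 2 than in both wild-type libraries, and 82 a lower one. Their median long share was 47.6% in knockdown replicate 2, and 47.7% and 44.1% in the wild type. Of 26 such ends of 18-qE1-1295, 13 had a higher share in knockdown replicate 2 and 5 a lower one. The median there was 38.8% in knockdown replicate 2, and 42.5% and 41.7% in the wild type. The ends named next are on 18-qE1-36451. At 26242 nt the long share was 87.7% in knockdown replicate 2, and 86.3% and 85.3% in the wild type. At 3642 nt it was 12.9% in knockdown replicate 2, and 13.3% and 14.2% in the wild type.

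The pair carried a larger share of long reads than the pooled reads of the other 98 band-named loci. Its long to short ratio was 0.219 and 1.20 in the knockdown, and 0.944 and 0.812 in the wild type. That of the others was 0.146 and 0.531 in the knockdown, and 0.432 and 0.416 in the wild type. The pair was higher in 4 of 4 libraries by a mean of 0.414 ± 0.254 (SD, n = 4), with p = 0.125 in the exact sign-flip permutation test, the smallest p that 4 libraries allow. With each distinct sequence counted once the mean was 0.123 and the exact p 0.25, so that the pair was then not higher in every library. In the pooled set the 17-qA3.3 pair weighs heavily, with 126527 of 226396 and 91027 of 330431 RPM in the knockdown. In the wild type it held 88075.5 of 211445 and 89010 of 299355 RPM. Its long to short ratio was 0.120 and 0.284 in the knockdown, and 0.267 and 0.217 in the wild type. The median over other band-named loci with at least 1000 reads was 0.177 and 0.744 in the knockdown, and 0.646 and 0.576 in the wild type. Among these loci, 16 of 81 had a higher ratio than 18-qE1-36451 in knockdown replicate 2, and 14 of 69 and 19 of 76 in the wild type. For 18-qE1-1295 the counts were 16 of 81 in knockdown replicate 2, and 24 of 69 and 25 of 76 in the wild type. In knockdown replicate 1, 6 of 42 loci stood above 18-qE1-36451 and 35 of 42 above 18-qE1-1295, whose own values there rest on 138 and 68 reads.

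A first base of U was present in 92.0% and 92.6% of the reads of 18-qE1-36451 in the knockdown, and 91.7% and 91.0% in the wild type. For 18-qE1-1295 it was 94.1% and 90.1% in the knockdown, and 87.8% and 85.6% in the wild type. Both knockdown libraries were above both wild-type libraries for each arm, with a mean difference of 0.999 and 5.43 percentage points and p = 0.333 in the exact permutation test for each. Of 176 loci with at least 100 reads in each library, 60 (34.1%) had the same order and 1 (0.568%) the opposite one, so this order is common among the loci. With each distinct sequence counted once, the groups overlapped for both arms, with differences of 5.72 and 6.27 points (exact p = 0.667 each), and without the 10 most abundant sequences they overlapped for 18-qE1-36451 (0.651 points, exact p = 0.667). The values of knockdown replicate 1 rest on 138 and 68 reads, with Wilson 95% intervals of 86.3% to 95.5% and 85.8% to 97.7%, which hold the wild-type values of 18-qE1-36451. Against the pooled reads of the other 98 band-named loci, the pair had more U at the first base in 4 of 4 libraries. The mean difference was 0.700 ± 0.474 percentage points (SD, n = 4, exact sign-flip p = 0.125). That mean was 0.0576 without the 10 most abundant sequences of each arm (exact p = 0.875) and 7.44 with each distinct sequence counted once (exact p = 0.125), so its size depends on how reads are weighted. The pooled value follows 18-qE1-36451, which has most of the reads. 18-qE1-1295 alone had less U than the other loci in 3 of 4 libraries, where the others had 91.4% and 91.8% in the knockdown, and 90.7% and 90.4% in the wild type.

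An A at base 10 is the mark of a piRNA made by a cut that another piRNA guided. 18-qE1-36451 had an A there in 17.4% and 20.3% in the knockdown, and 21.9% and 22.5% in the wild type, a mean difference of -3.33 percentage points with an exact permutation p of 0.333. The groups overlapped with each sequence counted once (-1.89 points, exact p = 1) and without the 10 most abundant sequences (-2.85 points, exact p = 0.667), and without knockdown replicate 1 the difference was -1.88 points. Of the 176 loci, 43 (24.4%) also had lower shares in both knockdown libraries than in both wild-type libraries. 18-qE1-1295 had 29.4% and 31.2% in the knockdown, and 30.3% and 30.5% in the wild type, and there the groups overlapped. Pooled, the reads of the pair held less A at base 10 than the pooled reads of the other 98 band-named loci in 4 of 4 libraries. The mean difference was -3.43 ± 0.773 percentage points (SD, n = 4, exact sign-flip p = 0.125). The arms went opposite ways in this: the others had 24.9% and 25.6% in the knockdown, and 25.5% and 25.8% in the wild type, above 18-qE1-36451 and below 18-qE1-1295 in each library.

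The sequenced reads of neither arm gave the head-to-tail pattern of phased piRNAs, in which one 5′ end starts at the base after another's 3′ end. These values describe the ends of the reads as sequenced, and how the precursors were cut was not tested. On 18-qE1-36451 the score at a distance of 1 nt was 0.948 of the mean over 2 to 50 nt in knockdown replicate 2, and 1.01 and 0.998 in the wild type. The same ratio on 18-qE1-1295 was 0.966 in knockdown replicate 2, and 0.835 and 0.915 in the wild type. The base after the 3′ end was U for 27.1% of the sense reads of 18-qE1-36451 in knockdown replicate 2. It was 27.6% and 26.6% in the wild type, where U makes up 30.6% of that arm's RNA. On 18-qE1-1295 it was 24.4% in knockdown replicate 2, and 20.7% and 21.04% in the wild type, where U makes up 25.02% of the arm's RNA.

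Sequences inside the arms that the table names as transposons were also nearly absent from knockdown replicate 1. Sense reads of LINE, SINE and LTR names with 1 place in 18-qE1-36451 numbered 28 and 11681 in the knockdown, and 7462 and 12228 in the wild type. In 18-qE1-1295 they numbered 2 and 2277 in the knockdown, and 1542 and 2431 in the wild type. The SINE reads of 18-qE1-36451 were mostly short, with a long to short ratio of 0.256 in knockdown replicate 2, and 0.268 and 0.244 in the wild type. The LINE reads of that arm had a ratio of 1.22 in knockdown replicate 2, and 1.03 and 0.840 in the wild type. These reads are not in the arm levels above, which use the name piRNAcluster alone.

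Band-named loci held 14 divergent pairs with 5′ ends at most 1000 nt apart, and the 18-qE1 pair ranked 8th among them by summed RPM in both knockdown libraries, and 8th and 7th in the wild type. Of the other 13 pairs, 7 were also under 5% of the lower wild-type library in knockdown replicate 1, and 0 in knockdown replicate 2. Both arms of these pairs need not be even: the stronger arm exceeded the weaker by 1.18 to 45.5 times in the wild type, with a median of 3.27 over the other pairs, and 4 of the 13 exceeded the 12.2 of 18-qE1. Its long to short ratio was passed by 3 of the 13 in knockdown replicate 2 and in each wild-type library. The 17-qA3.3 pair, the most abundant of the 14, was not low in knockdown replicate 1. Its plus-strand arm 17-qA3.3-26735 had 81781 and 58498 RPM in the knockdown, and 58105 and 56769 RPM in the wild type. The 6-qF3 pair stood at 17.4% of the lower wild type in knockdown replicate 1, where 18-qE1 stood at 0.501%. Its plus-strand arm 6-qF3-28913 had 541 and 6957 RPM in the knockdown, and 3648 and 6604 RPM in the wild type, and its minus-strand arm 6-qF3-8009 had 435 and 3881 RPM in the knockdown, and 1967 and 3375 RPM in the wild type.

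The loci most like the pair over the 4 libraries were 7-qD1-9417, 8-qE1-3748, 5-qG3-23659, 9-qA5.3-1495 and 4-qB3-3994. Likeness was the Euclidean distance of log2(RPM + 1) profiles, each centred on its own mean, from the mean profile of the pair. The distances ran from 0.34 to 0.71, where the median over 212 loci was 5.84 and the distance between the 2 arms was 2.33. The profile of 18-qE1-1295 counts 7.07 RPM in knockdown replicate 1, nearly all of it antisense reads shared with Unc119b. Its sense reads there stood at 0.208 RPM, and likeness by sense reads alone was not tested. The nearest, 7-qD1-9417, had 6.96 and 1382 RPM in the knockdown, and 603 and 1238 RPM in the wild type. 5-qG3-23659, the most abundant of the 5, had 79.4 and 10719 RPM in the knockdown, and 5603 and 9846 RPM in the wild type. 9-qA5.3-1495 had 0 and 128 RPM in the knockdown, and 105 and 226 RPM in the wild type.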

How the data were processed

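The deposited table held raw read counts made by the authors, with a line per distinct sequence and annotation in each library, and not normalized. It also held a ratio, the authors' scaling factor of 1000000 over the reads of mature miRNAs. Inserts of 18 to 40 bases had been selected, per the labels' protocol. The submitters' processing notes name cutadapt and mm39, and the aligner is not given in the sources used here. Each sequence was counted once per library. Reads of 25 to 31 nt of the class piRNAcluster were summed per locus. Sequences were placed by exact match in GRCm39 (the same build as mm39), the Unc119b copy was aligned with blastn 2.17.0, and genes were taken from GENCODE M39.

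Loci with 1 CPM in at least 2 libraries were fitted with edgeR 4.0.16 (quasi-likelihood F test, robust, TMM factors of 0.660 and 1.18 in the knockdown, and 1.11 and 1.15 in the wild type), with Benjamini-Hochberg adjustment at 0.05. DESeq2 1.42.0 was an alternative. The spread between libraries of a group, as edgeR's common coefficient of variation, was 77.9%. The fit was also run on simulated data, whose outcome is not given here. Those data had the same spread in all loci and libraries, unlike the real ones, where knockdown replicate 1 alone was low at many loci. Single values were compared by exact two-sided permutation over 6 assignments of the libraries, or over 16 sign flips within libraries. P-values measure the spread between these libraries only. Reads carry no molecular identifiers, so that intervals and floors cover counting error only. The named loci were the pair, the 5 nearest fitted loci by profile, and the 17-qA3.3 and 6-qF3 pairs, and the named piRNAs the 5 of each arm with the highest mean RPM. The members, lists and rules were chosen with earlier results of these data known.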

Additional observations from a re-analysis of the deposited data

How the results depend on the processing

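The exact tests cannot go below p = 0.333 with 2 libraries a group, and edgeR called neither arm in any fit that kept all libraries. Under the 10 other settings of the edgeR or DESeq2 fit that kept all libraries (other scalings, DESeq2, no filter, 1 name per sequence, all lines, all lengths, the replicate block, sense reads with 1 place), the log2 difference was -3.80 to -0.64 for 18-qE1-36451 and -2.53 to -0.68 for 18-qE1-1295, with adjusted p of 0.953 to 0.999. Among the 10, no filter and all lines left the counts of the main fit unchanged, so their agreement was fixed in advance. The setting with sense reads and those of the pair against the other loci were added after the data were seen. The replicate block gave -3.80 and -2.53 (adjusted p = 0.953, edgeR), with 0 loci called, and a same-number correlation of 0.50 over 214 loci from 2 pairs, and the numbers are not known to mark a shared litter or day.

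Leaving out 1 library in turn, the log2 difference ranged from -7.61 to -0.24 and from -5.02 to -0.29 for the arms, and the loci called from 0 to 62. The difference in the long to short ratio ranged from -0.623 to 0.316 for 18-qE1-36451 and from -0.619 to 0.439 for 18-qE1-1295, that in A at base 10 of 18-qE1-1295 from -1.01 to 0.812 percentage points, and that in the log2 ratio of the arms from -2.59 to 0.0550. Each turned positive without knockdown replicate 1, and the A at base 10 also without wild-type replicate 2 (0.0195).

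Of 41 other settings of the single values, 36 kept the direction. Among them, the replicate block and 1 name per sequence return the main values by construction, so their agreement was fixed in advance. The U and A shares of 18-qE1-36451 and the U share of 18-qE1-1295 no longer separated the groups in some of the other settings. The difference in A at base 10 of 18-qE1-1295 turned to 2.25 points with each sequence counted once, 1.08 without the 10 most abundant sequences and 35.8 with sequences of 1 place. With sequences of 1 place, the long to short ratio of that arm turned to 0.366 and the log2 ratio of the arms to 1.14, where knockdown replicate 1 holds 2 reads of the arm.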
